A study of Bos grunniens with 6 samples.

Results

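The genes described here are those of oxidative phosphorylation outside complex I: the subunits and a few assembly factors of complexes II to V, together with the vacuolar proton pump (V-ATPase), which the pathway label also covers. They are the rows of the table that carry the label "Oxidative phosphorylation" in their pathway annotation, are not annotated to the gene ontology term for respiratory chain complex I, and have no symbol beginning with NDUF. The rule gives 89 of 15646 genes. Of the 131 rows with the pathway label, 42 carry the complex I term or a symbol beginning with NDUF and are left out. The 89 rows hold 4 of complex II, 12 of complex III, 23 of complex IV, 20 of complex V, 24 of the V-ATPase and 6 others. They carry 66 distinct symbols, and 44 of the rows share a symbol with at least 1 other row. Some of these symbols, such as ATP6C, stand on rows of different genes. Other such rows may be copies of a gene that share reads. Since nothing states how shared reads were counted, the value of any 1 row that shares a symbol is uncertain.

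RNA was sequenced from 3 samples of dermal papilla cells (DPC) and 3 samples of hair matrix cells (HMC) of yak (Bos grunniens). Dermal papilla cells are mesenchymal and sit in the bulb of the follicle, and hair matrix cells are the epithelial cells around them that divide to build the hair shaft. Both were isolated from skin of the wild-type genotype and grown in the same medium, DMEM/F12 with 10% fetal bovine serum, 20 ng/mL of epidermal growth factor and 10 ng/mL of insulin-like growth factor 1, so the values describe cultured cells and not the follicle. The labels number the samples of each type as biological replicates without saying whether they came from separate animals, so a p-value measures the spread between these samples, which may be technical.

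Oxidative phosphorylation couples the transfer of electrons to oxygen with the making of ATP at the inner mitochondrial membrane. Complex II, which is also an enzyme of the citric acid cycle, passes electrons from succinate to ubiquinone. Complex III moves them on to cytochrome c, complex IV passes them to oxygen, and complex V, the ATP synthase, uses the proton gradient that results. The V-ATPase is a rotary relative of complex V that runs the other way: it spends ATP to acidify lysosomes and other compartments. Several subunits of complex IV and of the V-ATPase exist as alternative isoforms that differ between mammalian tissues.

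Values are FPKM, fragments scaled to gene length and to the mapped fragments of the library, as the authors deposited them. Whole reads could be recovered from the table, at least 13.1 to 13.4 M in a DPC library and at least 13.7 to 14.0 M in an HMC library (M, mega). The summed FPKM of a library was lower in DPC, at 548897 to 554803, against 647963 to 651773 in HMC. All 5 mesenchyme markers were higher in DPC, with a summed level of 15379 to 15951 FPKM in DPC libraries and 504 to 609 FPKM in HMC libraries. All 5 epithelium markers were higher in HMC, with a summed level of 33.8 to 47.1 FPKM in DPC and 1677 to 1775 FPKM in HMC, in the direction of both labels, with CDH1 and EPCAM passing the filter through HMC alone. Of 5 markers of other skin cells, 3 were matched, and their sum was 0.254 to 0.407 FPKM in DPC and 1.16 to 1.96 FPKM in HMC. Of these SOX10, a marker of neural crest cells, was listed at 0 in DPC and averaged 1.42 FPKM in HMC, and the part of such cells in the results was not tested. In bulk samples, fewer cells of a type and less RNA per cell cannot be told apart.

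Most genes of complexes II to V and of the V-ATPase were lower in DPC than in HMC. Of the 89 members, 76 reached a mean of 0.5 FPKM and were tested. With limma on log2(FPKM + 1), adjusted over all 11883 genes tested, 6 members were higher in DPC (7.89% of those tested, beside 29.7% of all genes) and 57 were lower in DPC and higher in HMC (75.0%, beside 46.2% of all genes). The other 13 did not pass the threshold of 0.05. Called genes are common between these 2 cell types, 75.9% of all genes in either direction, so the members' counts are to be read against these shares. The median log2 difference, DPC minus HMC, was -0.67 for the members and -0.15 for all genes. The members were also more abundant, with a median level of 59.6 FPKM, beside 12.5 FPKM over all tested genes. On the scale of FPKM + 1 the change of weakly expressed genes is understated, and no comparison with genes of like level was made. The lower and upper quartiles were -0.87 and -0.25 for members and -0.64 and 0.33 for all genes. Groups that did not overlap gave similar counts: the lowest DPC library stood above the highest HMC library in 6 members (30.8% of all genes), and every DPC library stood below every HMC library in 55 members (47.1% of all genes), while 15 overlapped.

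The differences were modest in size. Counting called members with a log2 difference of at least 1 in size (2-fold on the scale of FPKM + 1), 2 were higher in DPC (2.63%, beside 11.0% of all genes) and 11 were higher in HMC (14.5%, beside 16.1% of all genes). The share of members at least 2-fold higher in HMC was thus near that of all genes. Among 25 members averaging at least 100 FPKM, 1 was higher in DPC, 22 were higher in HMC and 2 did not pass. The level in those 22 was 1.10 to 2.04 times as high in HMC as in DPC. Over all tested genes, of any level, 29.7% were higher in DPC and 46.2% higher in HMC. How often genes of at least 100 FPKM were called was not counted, so the 25 have no like share. The counts that follow are also to be read against the shares of all genes. One tested member, ATP12A, passed the filter through HMC alone, so 75 had a mean of at least 0.5 FPKM in both groups, and their counts were 6 in the DPC direction and 56 in the HMC direction. With 1 row for each symbol, 62 were tested, with counts of 5 and 47 (8.06 and 75.8%). Some symbols, such as ATP6C, stand on rows of different genes, so this count leaves out some genes as well as copies. The 42 rows that the rule leaves out by the complex I term or an NDUF symbol had a like pattern. Of their 38 tested rows 1 was higher in DPC (2.63%) and 31 were higher in HMC (81.6%), with a median log2 difference of -0.58. The row higher in DPC was NDUFA4L2 (log2 difference 1.67), a paralog of the complex IV subunit NDUFA4. It passed the filter through DPC alone, on few recovered reads.

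**Figure D1:**
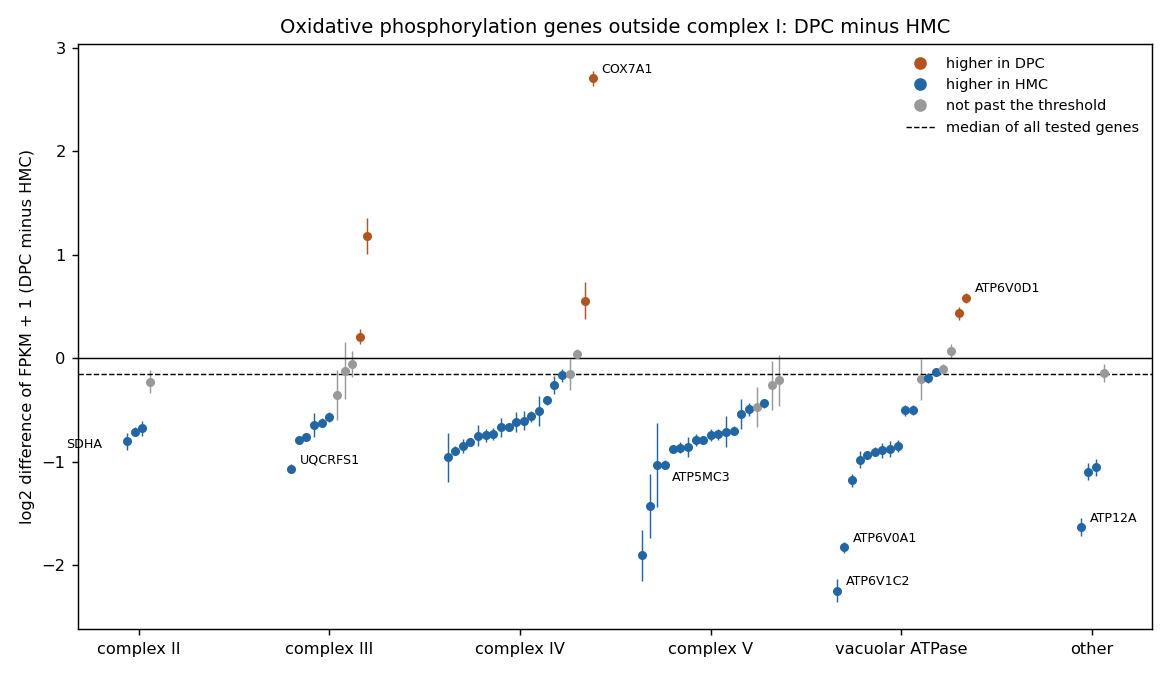
Log2 difference of FPKM + 1, DPC minus HMC, on the vertical axis for each of the 76 tested members, sorted within complex II, III, IV, V, the vacuolar ATPase and the others, with the standard error of the limma fit as a bar. Points below 0 are lower in DPC, the dashed line is the median of all 11883 genes at -0.15, and COX7A1 at 2.70 is the highest point and ATP6V1C2 at -2.25 the lowest.

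The levels of the complexes can be summed per library, since FPKM is per length. The members together took 1.42, 1.46 and 1.42% of a DPC library's summed FPKM, against 1.96, 1.95 and 1.91% of an HMC library's. No DPC library reached the lowest HMC library in the share of any complex. Complex V had the largest ratio between the groups, with 0.408, 0.431 and 0.403% in the DPC libraries, against 0.623, 0.623 and 0.626% in the HMC libraries. Complex IV held 0.549, 0.573 and 0.554% in DPC, against 0.751, 0.744 and 0.704% in HMC. The V-ATPase had the smallest ratio, with 0.2554, 0.2498 and 0.2516% in DPC, against 0.295, 0.293 and 0.290% in HMC. The HMC share was 1.35 times the DPC share for complex II, 1.39 times for complex III, 1.31 times for complex IV, 1.51 times for complex V and 1.16 times for the V-ATPase. On summed FPKM without division by the library's sum these ratios were 1.58, 1.63, 1.54, 1.77 and 1.36. The differences between complexes were not tested.

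**Figure D2:**
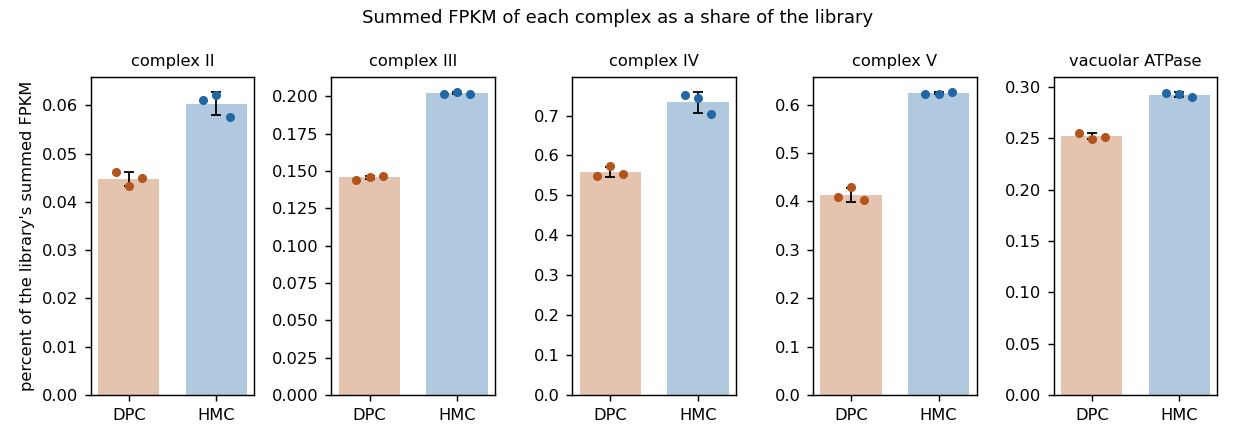
Percent of a library's summed FPKM taken by the genes of each complex, in 5 panels with their own vertical axis from 0, DPC libraries on the left and HMC libraries on the right. Bars are means of 3 libraries with the SD and points are single libraries: the DPC and HMC points do not overlap in any panel, and the HMC bar is 1.51 times the DPC bar for complex V and 1.16 times for the vacuolar ATPase.

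Complex II has 4 members, one row for each subunit, and 3 of them were lower in DPC (75.0%, beside 46.2% of all genes). SDHA, the flavoprotein that oxidises succinate, is listed as SDH2 (ENSBGRG00000020296) and had 86.5, 75.4 and 83.0 FPKM in the DPC libraries, against 158, 146 and 127 FPKM in the HMC libraries. For SDHA the log2 difference was -0.80 (SE 0.08, limma adjusted p = 3.7e-05). All 3 DPC libraries were below all 3 HMC libraries, and the HMC libraries were the more spread. Both membrane anchors were lower in DPC as well. SDHC (CYB560) had 68.7, 65.2 and 67.5 FPKM in the DPC libraries, against 113, 112 and 107 FPKM in the HMC libraries. For SDHC the log2 difference was -0.71 (SE 0.04, limma adjusted p = 9.2e-07). SDHD (SDH4) had 44.4, 53.3 and 51.8 FPKM in the DPC libraries, against 78.7, 83.6 and 78.0 FPKM in the HMC libraries. For SDHD the log2 difference was -0.68 (SE 0.07, limma adjusted p = 4.3e-05). In neither anchor did the groups overlap. SDHB, the iron-sulfur subunit, had 56.3, 44.02 and 46.8 FPKM in the DPC libraries, against 49.8, 62.4 and 60.6 FPKM in the HMC libraries. For SDHB the log2 difference was -0.23 (SE 0.11, limma adjusted p = 0.092). The first DPC library lay among the HMC libraries, so SDHB overlapped and did not pass. Without that library, SDHB passed as lower in DPC (log2 difference -0.33, limma adjusted p = 0.021), as it did without the first HMC library (log2 difference -0.33, limma adjusted p = 0.024).

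Complex III has 12 rows, of which 11 were tested, with a median log2 difference of -0.57. Of these 2 were higher in DPC (18.2%, beside 29.7% of all genes), 6 were higher in HMC (54.5%, beside 46.2%) and 3 did not pass. UQCRFS1, CYC1 and both core subunits were lower in DPC. The tested row with the cytochrome b symbol, COB, did not pass (log2 difference -0.06, limma adjusted p = 0.69), its groups overlapped, and its sign turned with each of 3 other scalings. UQCRFS1, the Rieske iron-sulfur protein (ENSBGRG00000020069), had 49.0, 48.0 and 48.0 FPKM in the DPC libraries, against 105, 102 and 101 FPKM in the HMC libraries. For UQCRFS1 the log2 difference was -1.07 (SE 0.04, limma adjusted p = 4.9e-08). The libraries of each group were close together and the groups did not overlap. UQCRC1, a core subunit, had 126, 125 and 128 FPKM in the DPC libraries, against 226, 211 and 222 FPKM in the HMC libraries, with no overlap. For UQCRC1 the log2 difference was -0.79 (SE 0.04, limma adjusted p = 3.2e-07). The other core subunit, UQCRC2, averaged 51.7 ± 9.80 FPKM in the 3 DPC and 80.6 ± 2.40 FPKM in the 3 HMC libraries (mean ± SD, as with all such pairs here; log2 difference -0.65, limma adjusted p = 0.0012), and cytochrome c1, CYC1, averaged 78.5 ± 2.71 FPKM in the 3 DPC and 117 ± 4.66 FPKM in the 3 HMC libraries (log2 difference -0.57, limma adjusted p = 7.8e-06).

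Among 6 rows of small accessory subunits of complex III, 2 were higher in DPC, 2 were higher in HMC and 2 did not pass. Each of these counts is 33.3%, beside 29.7% of all genes higher in DPC and 46.2% higher in HMC. Both rows higher in DPC carry the symbol UQCRB, and both that did not pass carry UQCRH. Those rows were at low levels, with means of 1.70 to 18.1 FPKM, so a split within the complex rests on them alone. UQCR11, listed as UQCR, was the most abundant row of the complex, with 394, 407 and 398 FPKM in the DPC libraries, against 680.0, 683 and 668 FPKM in the HMC libraries. For UQCR11 the log2 difference was -0.76 (SE 0.03, limma adjusted p = 5.8e-08). UQCRQ, at 50.5, 50.7 and 50.9 FPKM in the DPC libraries, against 79.5, 76.6 and 79.9 FPKM in the HMC libraries, was also lower in DPC (log2 difference -0.62, limma adjusted p = 1.7e-06). The groups overlapped in neither. UQCRB, a subunit near the ubiquinone site, has 2 rows, and both were higher in DPC. The row ENSBGRG00000004293 had 22.0, 19.9 and 15.9 FPKM in the DPC libraries, against 7.54, 10.4 and 6.19 FPKM in the HMC libraries. Every DPC library was above every HMC library. For this row the log2 difference was 1.18 (SE 0.18, limma adjusted p = 3.6e-04). Its lowest library held 21 recovered reads. The row ENSBGRG00000005916 had 17.9, 20.1 and 20.5 FPKM in the DPC libraries, against 15.9, 16.6 and 17.8 FPKM in the HMC libraries (log2 difference 0.21, SE 0.07, limma adjusted p = 0.03). These groups did not overlap, but the call was lost without any one of DPC replicates 2 and 3 and HMC replicates 1 and 2 (limma adjusted p = 0.076 to 0.098). UQCRH, the hinge protein, has 2 rows that did not pass: one had 6.25, 10.6 and 6.31 FPKM in the DPC libraries, against 5.04, 10.7 and 10.1 FPKM in the HMC libraries (log2 difference -0.12, limma adjusted p = 0.71), and the other averaged 1.38 FPKM (DPC) and 2.01 FPKM (HMC).

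Complex IV has 23 rows, 19 of subunits and 4 of assembly factors. Of the 20 tested, 2 were higher in DPC (10.0%, beside 29.7% of all genes), 16 were higher in HMC (80.0%, beside 46.2%) and 2 did not pass. The median log2 difference was -0.61. All 16 tested subunit rows passed, 2 in the DPC direction and 14 in the HMC direction. COX6C, the most abundant by mean, is listed as ENSBGRG00000012009 and had 409, 419 and 424 FPKM in the DPC libraries, against 746, 739 and 712 FPKM in the HMC libraries. For COX6C the log2 difference was -0.81 (SE 0.03, limma adjusted p = 7.3e-08). The groups were far apart beside the spread within them. A second COX6C row, ENSBGRG00000019690, was far lower, at 2.31, 3.03 and 4.66 FPKM in the DPC libraries, against 8.04, 5.08 and 9.12 FPKM in the HMC libraries (log2 difference -0.96, SE 0.24, limma adjusted p = 0.006), and its lowest library held 7 recovered reads. COX8A, listed as COX8, had 339.7, 349 and 343 FPKM in the DPC libraries, against 665, 661 and 599 FPKM in the HMC libraries, with no overlap. For COX8A the log2 difference was -0.90 (SE 0.04, limma adjusted p = 3.5e-07). COX4I1 (COX4), the regulatory subunit, had 241, 306 and 244 FPKM in the DPC libraries, against 432, 430.3 and 393 FPKM in the HMC libraries (log2 difference -0.67, limma adjusted p = 1.9e-04), and COX6A1, the isoform found in most tissues, 420.0, 405 and 401 FPKM in the DPC libraries, against 674, 644 and 631 FPKM in the HMC libraries (log2 difference -0.67, limma adjusted p = 5.8e-07). DPC replicate 2 was the highest DPC library in COX4I1 and still lay below the lowest HMC library.

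The exceptions in complex IV were COX7A1 and COX6B2. COX7A1, the isoform typical of heart and skeletal muscle in mammals, is listed as COX7A (ENSBGRG00000018940) and had 20.5, 22.8 and 21.3 FPKM in the DPC libraries, against 2.68, 2.35 and 2.33 FPKM in the HMC libraries. For COX7A1 the log2 difference was 2.70 (SE 0.07, limma adjusted p = 8.6e-09). Every DPC library was above every HMC library, and the mean was 8.76 times as high in DPC as in HMC. The lowest HMC library held 8 recovered reads. Its counterpart of most other tissues, COX7A2 (COX7AL), went the other way, with 417, 436 and 397 FPKM in the DPC libraries, against 733, 712 and 636 FPKM in the HMC libraries. For COX7A2 the log2 difference was -0.73 (SE 0.06, limma adjusted p = 6.9e-06). COX6B2, known from testis in mammals, had 1.87, 2.04 and 1.40 FPKM in the DPC libraries, against 1.24, 0.408 and 1.10 FPKM in the HMC libraries. For COX6B2 the log2 difference was 0.56 (SE 0.18, limma adjusted p = 0.023). The COX6B2 libraries did not overlap, but the levels were low, the lowest library held 7 recovered reads, and the call was lost without DPC replicate 1 (limma adjusted p = 0.064) or DPC replicate 2 (limma adjusted p = 0.073). Its common counterpart COX6B1 (COX6B) had 93.8, 96.8 and 78.7 FPKM in the DPC libraries, against 146, 139 and 125 FPKM in the HMC libraries (log2 difference -0.60, limma adjusted p = 3.0e-04).

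The remaining subunit rows of complex IV were lower in DPC by log2 differences of -0.17 to -0.85. They were COX5A (2 rows), COX5B, COX7A2L, COX7B and 2 rows named COX7CP1, the symbol of a processed copy of COX7C, of which one averaged 337 FPKM (DPC) and 498 FPKM (HMC) and the other 129.9 FPKM (DPC) and 218 FPKM (HMC). COX7A2L, which helps to join complexes III and IV, averaged 106 ± 2.96 FPKM in the 3 DPC and 141 ± 4.22 FPKM in the 3 HMC libraries (log2 difference -0.41, limma adjusted p = 3.0e-05). COX7B, with 277, 324 and 324 FPKM in the DPC libraries, against 340.4, 354 and 342 FPKM in the HMC libraries, had the smallest difference (log2 difference -0.17, limma adjusted p = 0.037), and its call was lost without any one of DPC replicate 1 and HMC replicates 1 to 3 and its sign turned with quantile normalization (0.082) and equal library sums (0.065). Of the assembly factors, COX10, which makes heme O, averaged 17.3 ± 2.40 FPKM in the 3 DPC and 27.0 ± 1.64 FPKM in the 3 HMC libraries (log2 difference -0.62, limma adjusted p = 5.1e-04). COX11, which delivers copper, had 26.6, 28.4 and 30.7 FPKM in the DPC libraries, against 34.2, 30.6 and 38.6 FPKM in the HMC libraries (log2 difference -0.26, limma adjusted p = 0.029). The COX11 groups touched at 30.6 to 30.7 FPKM, and the call was lost without any one of DPC replicates 1 and 2 and HMC replicates 1 and 3. COX5B, a nuclear-encoded subunit, averaged 17.8 ± 4.51 FPKM in the 3 DPC and 25.3 ± 1.45 FPKM in the 3 HMC libraries (log2 difference -0.51, limma adjusted p = 0.013) and lost its call, as COX11 did, with each of 3 other scalings (limma adjusted p of COX5B = 0.059 to 0.12). COX15 and the copper chaperone COX17 did not pass. COX17 had 149, 152 and 147 FPKM in the DPC libraries, against 147, 138 and 150.0 FPKM in the HMC libraries (log2 difference 0.04, limma adjusted p = 0.38), and with each of 3 other scalings (median of ratios, quantile normalization and equal library sums) it passed as higher in DPC (log2 difference 0.20 to 0.32).

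Complex V has 20 rows. Of the 19 tested, 0 were higher in DPC (29.7% of all genes), 16 were higher in HMC (84.2%, beside 46.2% of all genes) and 3 did not pass. At an unadjusted p under 0.05 the count higher in DPC was also 0. The median log2 difference was -0.74. ATP5MC3, which encodes the c subunit of the rotating ring, is listed as ATP5G3 (ENSBGRG00000016024) and was the most abundant of all 89 members, with 555, 557 and 521 FPKM in the DPC libraries, against 1164, 1097 and 1075 FPKM in the HMC libraries. For ATP5MC3 the log2 difference was -1.03 (SE 0.04, limma adjusted p = 8.2e-08). The HMC level was 2.04 times the DPC level, and the groups did not overlap. The catalytic F1 sector was lower in DPC too. Its alpha subunit, ATP5F1A (ATP5A1, ENSBGRG00000018791), had 341, 343 and 352 FPKM in the DPC libraries, against 632, 634 and 636 FPKM in the HMC libraries. For ATP5F1A the log2 difference was -0.87 (SE 0.03, limma adjusted p = 2.4e-08). Its beta subunit, ATP5F1B (ATP5B), had 319, 317 and 317 FPKM in the DPC libraries, against 561, 545 and 547 FPKM in the HMC libraries. For ATP5F1B the log2 difference was -0.79 (SE 0.03, limma adjusted p = 4.5e-08). In both, the DPC libraries lay close together and well below the HMC libraries. The delta subunit ATP5F1D averaged 70.2 ± 1.92 FPKM in the 3 DPC and 129 ± 8.30 FPKM in the 3 HMC libraries (log2 difference -0.87, limma adjusted p = 1.4e-06), and the epsilon subunit ATP5F1E 129 ± 10.0 FPKM in the 3 DPC and 224 ± 3.85 FPKM in the 3 HMC libraries (log2 difference -0.79, limma adjusted p = 3.5e-06).

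The median log2 difference was -0.87 over 6 rows of the F1 sector, -0.71 over 7 of the membrane sector and -0.51 over 4 of the peripheral stalk. Of these rows 6, 6 and 3 were lower in DPC (100, 85.7 and 75.0%, beside 46.2% of all genes). Differences between the sectors were not tested. The F1 rows include the low second rows of the alpha and epsilon subunits given below. ATP5PB, subunit b of the peripheral stalk, had 40.5, 39.7 and 39.7 FPKM in the DPC libraries, against 54.1, 54.0 and 55.3 FPKM in the HMC libraries. For ATP5PB the log2 difference was -0.44 (SE 0.04, limma adjusted p = 2.0e-05). ATP5PD, subunit d, averaged 181 ± 4.21 FPKM in the 3 DPC and 305 ± 22.9 FPKM in the 3 HMC libraries (log2 difference -0.74, limma adjusted p = 4.9e-06), and ATP5MG, subunit g, averaged 448 ± 22.9 FPKM in the 3 DPC and 728 ± 29.7 FPKM in the 3 HMC libraries in its most abundant row (log2 difference -0.70, limma adjusted p = 2.1e-06). ATP5PO, the stalk subunit that confers sensitivity to oligomycin and is listed as ATP5O, had 38.8, 56.3 and 31.9 FPKM in the DPC libraries, against 68.5, 51.5 and 54.0 FPKM in the HMC libraries. For ATP5PO the log2 difference was -0.47 (SE 0.19, limma adjusted p = 0.054). Its DPC replicate 2 lay above 2 of the HMC libraries, and without that library ATP5PO passed as lower in DPC (log2 difference -0.69, limma adjusted p = 0.0028), as it did with the filter at 5 FPKM (limma adjusted p = 0.049). ATP5PF, coupling factor 6 of the stalk, averaged 22.4 ± 5.66 FPKM in the 3 DPC and 32.5 ± 0.727 FPKM in the 3 HMC libraries (log2 difference -0.54, limma adjusted p = 0.009), and its call was lost with quantile normalization (limma adjusted p = 0.12) and equal library sums (limma adjusted p = 0.084). A low row of subunit e, ATP5ME, had 7.22, 9.48 and 7.63 FPKM in the DPC libraries, against 10.7, 6.29 and 14.1 FPKM in the HMC libraries, and passed as lower in DPC when HMC replicate 2 was left out (log2 difference -0.55, limma adjusted p = 0.012). A few rows had larger differences at low levels. ATP6 is the symbol of a mitochondrially encoded subunit, and whether its rows are that gene is not settled. The less abundant ATP6 row had 0.562, 0.862 and 2.27 FPKM in the DPC libraries, against 7.67, 7.04 and 6.17 FPKM in the HMC libraries, with no overlap. For this row the log2 difference was -1.91 (SE 0.25, limma adjusted p = 1.5e-04). A second row of the epsilon subunit, ENSBGRG00000000690, had 4.28, 6.81 and 2.40 FPKM in the DPC libraries, against 9.74, 12.4 and 18.1 FPKM in the HMC libraries, with no overlap. For this row the log2 difference was -1.43 (SE 0.31, limma adjusted p = 0.003). A second row of the alpha subunit, ENSBGRG00000009771, had 0.544, 1.94 and 0.549 FPKM in the DPC libraries, against 1.06, 4.45 and 4.41 FPKM in the HMC libraries. For this row the log2 difference was -1.04 (SE 0.41, limma adjusted p = 0.047). The first HMC library lay below the highest DPC library there, and the call was lost without any one of 4 libraries and with each of 6 other settings (limma adjusted p = 0.052 to 0.15). The lowest libraries of these 3 rows held 2 to 5 recovered reads.

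**Figure D3:**
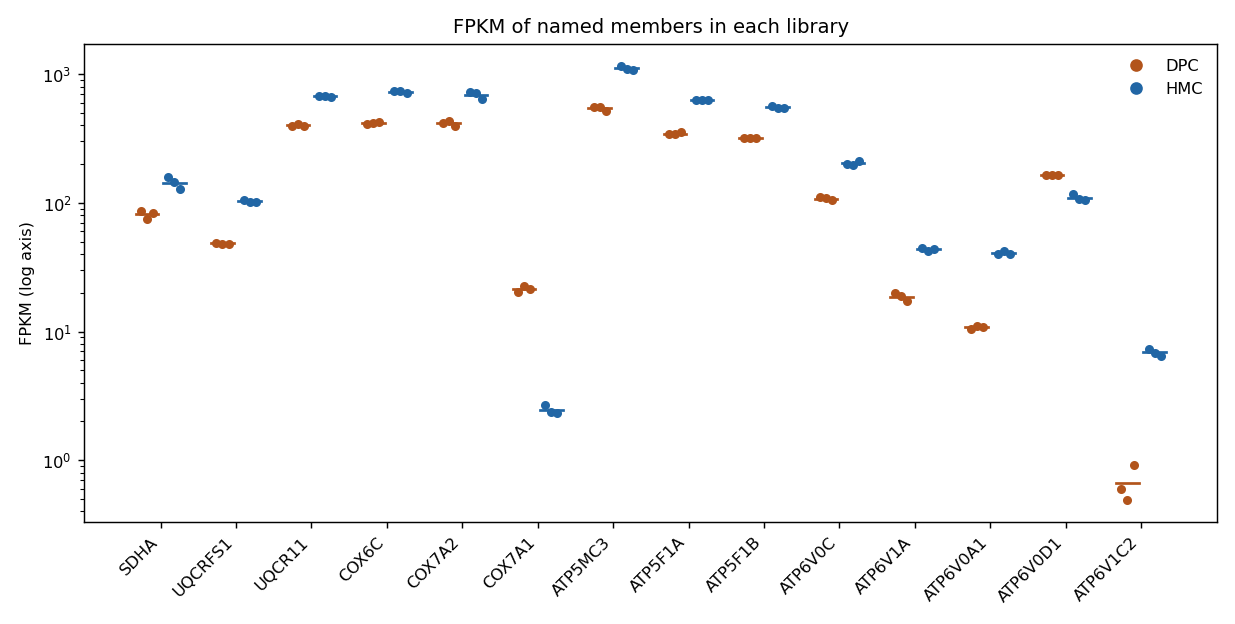
FPKM on a log axis for 14 named members, with 3 DPC libraries (left) and 3 HMC libraries (right) for each gene and the mean as a line. COX7A1 and ATP6V0D1 are higher in DPC, the other 12 are higher in HMC, and no pair of groups overlaps.

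The V-ATPase has 24 rows, of which 18 were tested, with a median log2 difference of -0.68. Of these 2 were higher in DPC (11.1%, beside 29.7% of all genes), 13 were higher in HMC (72.2%, beside 46.2%) and 3 did not pass. The spread of the V-ATPase was the widest of the complexes, with quartiles of -0.93 and -0.15. In the soluble V1 sector, which binds ATP, 0 of 10 tested rows were higher in DPC by limma, also at an unadjusted p under 0.05, and 8 were higher in HMC. ATP6V1A, the catalytic subunit, is listed as ATP6A1 (ENSBGRG00000001479) and had 19.8, 18.8 and 17.2 FPKM in the DPC libraries, against 44.3, 42.4 and 43.7 FPKM in the HMC libraries. For ATP6V1A the log2 difference was -1.18 (SE 0.06, limma adjusted p = 4.2e-07). ATP6V1C2, a subunit isoform of restricted tissues that helps to hold V1 to V0, had 0.600, 0.486 and 0.919 FPKM in the DPC libraries, against 7.34, 6.86 and 6.49 FPKM in the HMC libraries. For ATP6V1C2 the log2 difference was -2.25 (SE 0.11, limma adjusted p = 3.1e-07). Its level was 10.3 times as high in HMC as in DPC, the largest ratio among tested members not at 0. The alternative isoform ATP6V1C1 (listed as ATP6C) had 16.3, 17.8 and 17.3 FPKM in the DPC libraries, against 17.8, 15.4 and 15.6 FPKM in the HMC libraries (log2 difference 0.07, SE 0.07, limma adjusted p = 0.41), with overlapping groups, and passed as higher in DPC with each of the 3 other scalings (log2 difference 0.22 to 0.29). ATP6V1E1 averaged 54.1 ± 6.57 FPKM in the 3 DPC and 99.9 ± 3.29 FPKM in the 3 HMC libraries (log2 difference -0.88, limma adjusted p = 1.7e-05), while its isoform ATP6V1E2 averaged 2.65 ± 0.752 FPKM in the 3 DPC and 3.22 ± 0.936 FPKM in the 3 HMC libraries and did not pass.

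ATP6V1F, listed as ATP6S14, has 2 rows, both lower in DPC, of which one averaged 65.1 FPKM (DPC) and 129 FPKM (HMC) and the other 38.0 FPKM (DPC) and 71.1 FPKM (HMC). ATP6V1D, of the central rotor, averaged 65.4 ± 3.33 FPKM in the 3 DPC and 92.7 ± 1.33 FPKM in the 3 HMC libraries (log2 difference -0.50, limma adjusted p = 2.2e-05). ATP6V1G1 (ATP6G), the most abundant V1 row, had 289, 304 and 300.2 FPKM in the DPC libraries, against 321, 328 and 333 FPKM in the HMC libraries. For ATP6V1G1 the log2 difference was -0.14 (SE 0.03, limma adjusted p = 0.0067). ATP6V1H, a regulatory subunit, averaged 38.7 ± 1.24 FPKM in the 3 DPC and 44.3 ± 1.40 FPKM in the 3 HMC libraries (log2 difference -0.19, limma adjusted p = 0.0074). These last differences were small: with quantile normalization the sign turned for both, and ATP6V1G1 then passed as higher in DPC (log2 difference 0.13, limma adjusted p = 0.010), as it did with equal library sums (limma adjusted p = 0.035).

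The membrane sector V0, which carries the protons, had rows in both directions, at shares not far from those of all genes. Of its 7 tested rows 2 were higher in DPC (28.6%, beside 29.7% of all genes), 4 were higher in HMC (57.1%, beside 46.2% of all genes) and 1 did not pass. ATP6V0A1, an isoform of the largest subunit, is listed as ATP6N1 (ENSBGRG00000009889) and had 10.5, 11.0 and 10.8 FPKM in the DPC libraries, against 40.4, 42.0 and 40.1 FPKM in the HMC libraries. For ATP6V0A1 the log2 difference was -1.83 (SE 0.05, limma adjusted p = 9.4e-09). Another row of that subunit, with the symbol ATP6N1B (ENSBGRG00000014392), went the other way with 14.7, 13.7 and 13.4 FPKM in the DPC libraries, against 10.3, 10.2 and 9.61 FPKM in the HMC libraries. For this row the log2 difference was 0.43 (SE 0.06, limma adjusted p = 3.3e-04). The groups overlapped in neither. Which isoform the ATP6N1B row stands for is not settled by the table. ATP6V0D1 (ATP6D), which couples the rotor to the ring, had 165, 165 and 164 FPKM in the DPC libraries, against 117, 107 and 105 FPKM in the HMC libraries. Every DPC library was above every HMC library. For ATP6V0D1 the log2 difference was 0.58 (SE 0.05, limma adjusted p = 7.9e-06). The proteolipid ATP6V0C, listed as ATP6C, had 111, 109 and 104 FPKM in the DPC libraries, against 202, 197 and 209.9 FPKM in the HMC libraries. For ATP6V0C the log2 difference was -0.90 (SE 0.04, limma adjusted p = 1.8e-07). A further ATP6C row annotated to V0 averaged 30.4 ± 1.40 FPKM in the 3 DPC and 55.6 ± 3.09 FPKM in the 3 HMC libraries (log2 difference -0.85, limma adjusted p = 2.7e-06). ATP6V0E1 (ATP6H), the most abundant V-ATPase row, had 290.2, 256 and 284 FPKM in the DPC libraries, against 401, 396 and 381 FPKM in the HMC libraries. For ATP6V0E1 the log2 difference was -0.51 (SE 0.05, limma adjusted p = 3.3e-05). ATP6V0B averaged 132 ± 7.998 FPKM in the 3 DPC and 142 ± 4.11 FPKM in the 3 HMC libraries and did not pass (log2 difference -0.10, limma adjusted p = 0.098), but it passed as higher in DPC with quantile normalization (log2 difference 0.16, limma adjusted p = 0.018) and equal library sums (0.13, limma adjusted p = 0.044), and as lower in DPC without DPC replicate 3 (-0.14, limma adjusted p = 0.049). The accessory protein ATP6AP1 (ATP6IP1), which takes part in assembling the pump, had 58.5, 59.8 and 58.1 FPKM in the DPC libraries, against 114, 112 and 114 FPKM in the HMC libraries (log2 difference -0.94, limma adjusted p = 8.1e-08).

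The 6 other rows are pyrophosphatases, ion pumps of another type and a row with a complex I symbol. PPA1, the cytosolic pyrophosphatase, is listed as PP (ENSBGRG00000021913) and was the most abundant, with 64.2, 66.4 and 56.9 FPKM in the DPC libraries, against 131, 124 and 150.5 FPKM in the HMC libraries. For PPA1 the log2 difference was -1.10 (SE 0.08, limma adjusted p = 5.0e-06). LHPP, a phosphatase that also splits pyrophosphate, had 7.03, 7.80 and 8.55 FPKM in the DPC libraries, against 18.4, 16.4 and 17.0 FPKM in the HMC libraries. For LHPP the log2 difference was -1.06 (SE 0.08, limma adjusted p = 5.7e-06). In both, the HMC libraries stood apart above the DPC libraries. PPA2 (HSPC124), the mitochondrial pyrophosphatase, averaged 39.3 ± 3.28 FPKM in the 3 DPC and 43.7 ± 4.81 FPKM in the 3 HMC libraries and did not pass (log2 difference -0.15, limma adjusted p = 0.17). ATP12A, the proton and potassium pump outside the stomach, is listed as ATP1AL1 (ENSBGRG00000007336). It was listed at 0 in every DPC library, against 1.95, 2.04 and 2.33 FPKM in the HMC libraries, where it rested on 161, 171 and 197 recovered reads. Taking 3 reads per library as the limit for a count of 0, which is at most 0.0380 FPKM in DPC, the HMC level was at least 55.4-fold higher. Such limits cover counting error only.

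The 13 untested members had means of at most 0.239 FPKM over the 6 libraries. They were MTND4, ATP4A, ATP6V0A4 (ATP6N1B), ATP6V1B1 (ATP6B1), ATP6V0D2, an ATP6G row of synaptic vesicles, and further rows of COB, COX4, COX7B, COX6B, ATP5J2, ATP6V1C2 and ATP6M. ATP4A is the gastric proton pump, and ATP6V0A4, ATP6V1B1 and ATP6V0D2 are isoforms known from acid-secreting or bone-resorbing cells of mammals. None reached the filter in either cell type's mean. The symbols ATP6, COB and MTND4 are those of genes in the mitochondrial genome, and whether their rows are organelle genes or copies in the nucleus cannot be told from the table. The tested COB row had means of 0.772 FPKM in DPC libraries and 0.833 FPKM in HMC libraries, and the more abundant ATP6 row had 24.2, 47.1 and 24.4 FPKM in DPC, against 34.0, 30.6 and 42.4 FPKM in HMC. The second DPC library was the highest of all 6 in that ATP6 row, and without it the row passed as lower in DPC (log2 difference -0.52, limma adjusted p = 0.0079).

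The share of an isoform in the summed FPKM of a named set of isoforms within a library is not altered by a common factor per library. A set need not hold the whole family: that of COX7A1 leaves out COX7A2L. Of 9 shares compared, in sets picked with their values known, the 3 DPC libraries did not overlap the 3 HMC libraries in 8. An exact two-sided permutation test of 3 against 3 cannot go below 0.1, and these 8 shares each gave p = 0.1 (0.113 after Benjamini-Hochberg adjustment over the 9). The exception was ATP6V1E2, which took 3.08, 6.37 and 4.83% in the DPC libraries, against 2.17, 3.84 and 3.34% in the HMC libraries, of its sum with ATP6V1E1 (exact permutation p = 0.300, adjusted p = 0.300). Some of these isoforms lack the pathway label and are no members. COX7A1 made up 4.67, 4.97 and 5.09% in the DPC libraries, against 0.364, 0.330 and 0.365% in the HMC libraries, of COX7A1 and COX7A2 together. COX6B2 averaged 1.92% in DPC and 0.668% in HMC of COX6B2 and COX6B1. In the V-ATPase, ATP6V0A1 took 41.6, 44.5 and 44.6% in the DPC libraries, against 79.6, 80.4 and 80.7% in the HMC libraries, of the sum with the ATP6N1B row. ATP6V1C2 took 3.55, 2.66 and 5.05% in the DPC libraries, against 29.2, 30.7 and 29.4% in the HMC libraries, of the sum with ATP6V1C1. Thus ATP6N1B was the more abundant of its pair in every DPC library and ATP6V0A1 in every HMC library, while ATP6V1C1 exceeded ATP6V1C2 in all 6.

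ATP6V0E2, an isoform without the pathway label, had 23.8, 17.0 and 17.1 FPKM in the DPC libraries, against 5.34, 9.02 and 9.58 FPKM in the HMC libraries (log2 difference 1.19, SE 0.21, limma adjusted p = 8.7e-04), which made up 6.49% of its sum with ATP6V0E1 in DPC and 2.00% in HMC. ATP5MC1 (ATP5G1) encodes the same mature c subunit as ATP5MC2 and ATP5MC3 and averaged 36.3 ± 3.65 FPKM in the 3 DPC and 30.8 ± 0.660 FPKM in the 3 HMC libraries (log2 difference 0.22, limma adjusted p = 0.021). It held 5.34% of the c subunit rows in DPC and 2.37% in HMC. The carriers that exchange ADP for ATP across the inner membrane also differed by isoform. SLC25A4 (ANT1), the isoform of heart and skeletal muscle, had 213, 213 and 219 FPKM in the DPC libraries, against 121, 133 and 132 FPKM in the HMC libraries. For SLC25A4 the log2 difference was 0.74 (SE 0.04, limma adjusted p = 1.1e-06). SLC25A5 (ANT2), typical of dividing cells, had 128, 136 and 134 FPKM in the DPC libraries, against 431, 427 and 447 FPKM in the HMC libraries. For SLC25A5 the log2 difference was -1.70 (SE 0.04, limma adjusted p = 2.8e-09). Of the 3 carriers together, SLC25A4 took 24.2% in DPC and 10.6% in HMC, and SLC25A5 took 15.0% in DPC and 35.9% in HMC.

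**Figure D4:**
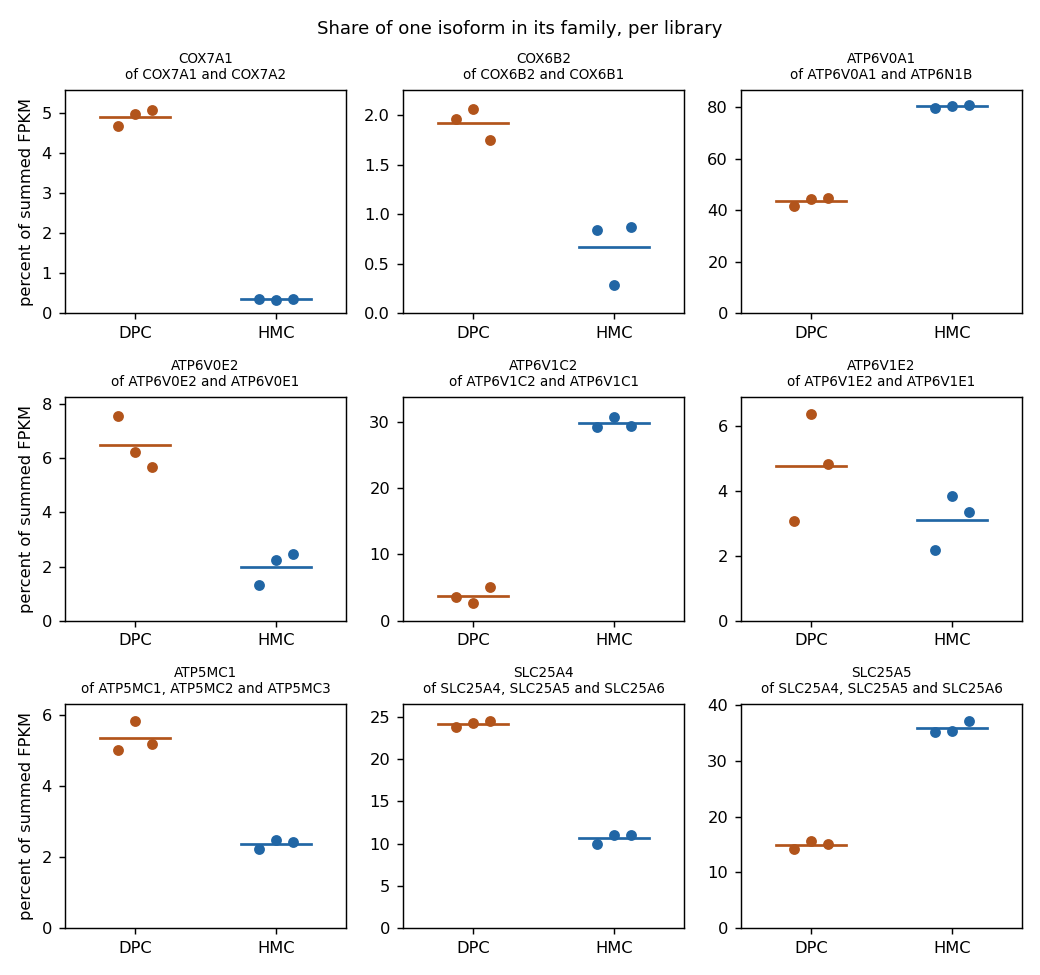
Share of one isoform in the summed FPKM of the rows named above each panel, which need not be the whole family, in percent on axes from 0. The 9 panels have 3 DPC libraries on the left and 3 HMC libraries on the right and the mean as a line. The DPC and HMC points overlap for ATP6V1E2 and in no other panel: COX7A1, COX6B2, ATP6V0E2, ATP5MC1 and SLC25A4 hold the larger share in DPC, and ATP6V0A1, ATP6V1C2 and SLC25A5 in HMC.

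Genes around the complexes were counted in lists. Their counts are to be read against the shares of all genes, 29.7% higher in DPC and 46.2% higher in HMC. Of 8 subunits that lack the pathway label or fall to the NDUF rule, 3 were higher in DPC (ATP5G1, ATP6V0E2 and NDUFA4L2) and 5 were higher in HMC. NDUFA4, now placed in complex IV, averaged 498 ± 13.8 FPKM in the 3 DPC and 819 ± 19.7 FPKM in the 3 HMC libraries (log2 difference -0.72, limma adjusted p = 2.2e-07), and its paralog NDUFA4L2 averaged 2.64 ± 1.42 FPKM in the 3 DPC and 0.0903 ± 0.156 FPKM in the 3 HMC libraries, on at most 14 recovered reads in a library. NDUFA4L2 passed the filter through DPC alone, so that 2 of the 3 had a mean of at least 0.5 FPKM in both groups. Of 27 tested assembly factors of complexes II to V, 2 were higher in DPC, 16 were higher in HMC and 9 did not pass. SURF1 (SURF-1), which acts early in building complex IV, had 32.1, 32.8 and 30.6 FPKM in the DPC libraries, against 129, 119 and 122 FPKM in the HMC libraries. For SURF1 the log2 difference was -1.92 (SE 0.05, limma adjusted p = 5.6e-09). PET100, of the same complex, averaged 28.8 ± 2.86 FPKM in the 3 DPC and 56.1 ± 4.24 FPKM in the 3 HMC libraries (log2 difference -0.94, limma adjusted p = 1.4e-05). The 2 higher in DPC were UQCC2 (MNF1), of complex III, with means of 19.6 FPKM (DPC) and 14.9 FPKM (HMC) (log2 difference 0.38, limma adjusted p = 7.4e-04), and TMEM70, of complex V, with 9.04 FPKM (DPC) and 6.22 FPKM (HMC) (log2 difference 0.48, limma adjusted p = 2.7e-04). With the library sums equalized the count of assembly factors became 7 higher in DPC and 9 higher in HMC, beside 40.2 and 34.4% of all genes.

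All 18 genes of the citric acid cycle and pyruvate dehydrogenase were lower in DPC, and 16 of 18 with each of the 3 other scalings. IDH3A, the catalytic subunit of the NAD-dependent isocitrate dehydrogenase, had 93.1, 91.0 and 93.5 FPKM in the DPC libraries, against 309.7, 318 and 343 FPKM in the HMC libraries. For IDH3A the log2 difference was -1.79 (SE 0.05, limma adjusted p = 5.1e-09). Of 9 tested genes of ATP export and uncoupling, SLC25A4 was higher in DPC and 8 were higher in HMC, among them UCP2 (SLC25A8), an uncoupling protein homolog, with 16.8, 16.4 and 17.5 FPKM in the DPC libraries, against 57.8, 61.2 and 64.3 FPKM in the HMC libraries. For UCP2 the log2 difference was -1.79 (SE 0.06, limma adjusted p = 1.8e-08). Of 16 tested genes that feed or make ubiquinone, 1 was higher in DPC (29.7% of all genes), 9 were higher in HMC (46.2% of all genes) and 6 did not pass. DHODH, which makes pyrimidines and passes electrons to ubiquinone, averaged 6.92 ± 1.03 FPKM in the 3 DPC and 4.54 ± 0.218 FPKM in the 3 HMC libraries (log2 difference 0.51, limma adjusted p = 0.0024). COQ2 and COQ4, of ubiquinone synthesis, were lower in DPC by log2 differences of -0.51 (limma adjusted p = 0.0019) and -0.47 (limma adjusted p = 0.0017), and the call of COQ4 was lost with quantile normalization (limma adjusted p = 0.11). The count of this list became 2 or 3 higher in DPC and 2 or 3 higher in HMC under the other scalings. Over all genes, 36.5 to 40.2% were then higher in DPC and 34.3 to 37.8% higher in HMC.

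Of 14 tested regulators of mitochondrial genes, 2 were higher in DPC, 5 were higher in HMC and 7 did not pass. Both shares were below those of all genes, 29.7% in the DPC and 46.2% in the HMC direction. The coactivator PPARGC1B (PERC) had 1.37, 1.51 and 1.62 FPKM in the DPC libraries, against 9.43, 8.84 and 9.37 FPKM in the HMC libraries. For PPARGC1B the log2 difference was -2.03 (SE 0.08, limma adjusted p = 5.3e-08). Its partner receptor ESRRA (ERR1) had 30.7, 31.3 and 31.1 FPKM in the DPC libraries, against 60.8, 60.0 and 63.0 FPKM in the HMC libraries. For ESRRA the log2 difference was -0.96 (SE 0.04, limma adjusted p = 1.9e-07). PPARGC1A (PGC1) was below the filter, with 0.315, 0.246 and 0.205 FPKM in the DPC libraries, and was listed at 0 in the HMC libraries. POLG2, of mitochondrial DNA replication, and GABPA, an ETS factor, were higher in DPC by 0.46 (limma adjusted p = 0.002) and 0.22 (limma adjusted p = 0.026) on the log2 scale. NRF1 and TFAM did not pass. Of 14 tested genes that assemble or regulate the V-ATPase, 6 were higher in DPC (29.7% of all genes), 7 were higher in HMC (46.2% of all genes) and 1 did not pass. MITF (BHLHE32), a transcription factor that acts on lysosomal genes, averaged 2.83 ± 0.271 FPKM in the 3 DPC and 1.00 ± 0.154 FPKM in the 3 HMC libraries (log2 difference 0.93, limma adjusted p = 3.8e-05), and DMXL2, of the complex that joins V1 to V0, averaged 0.906 ± 0.109 FPKM in the 3 DPC and 0.252 ± 0.0619 FPKM in the 3 HMC libraries. DMXL2 too passed the filter through DPC alone, which leaves 5 of the 6 with a mean of at least 0.5 FPKM in both groups. CCDC115, an assembly factor of the pump, was lower in DPC, with a log2 difference of -0.93 (limma adjusted p = 4.0e-06) and LAMTOR5, of the complex that anchors nutrient signalling to lysosomes, with one of -0.61 (limma adjusted p = 5.7e-05). Under the other scalings the counts were 4 higher in DPC and 3 or 4 higher in HMC for the regulators of mitochondrial genes, and 6 higher in DPC and 3 or 4 higher in HMC for the V-ATPase genes. Over all genes, 36.5 to 40.2% were then higher in DPC and 34.3 to 37.8% higher in HMC.

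Replicates of one cell type were close in most members. The median coefficient of variation over members was 6.99% in DPC and 5.57% in HMC, beside 6.64% in DPC and 7.16% in HMC over all genes. DPC replicate 2 was the highest DPC library in 34 of 76 members (44.7%, beside 30.8% of all genes), among them 11 of 19 rows of complex V and 10 of 20 of complex IV. Low counts limited 14 tested members, which had fewer than 25 recovered reads in at least 1 library.

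FPKM does not correct for a difference in RNA composition, and the libraries' sums differed between the cell types, so the comparison was repeated with 3 other scalings. The median over all genes moved to -0.01 with median-of-ratios rescaling, to 0.05 with quantile normalization and to 0.05 with the library sums equalized. The median over members was -0.51, -0.41 and -0.44 with these scalings in turn. Relative to the median of all genes, the members lay at -0.52 as deposited and at -0.50, -0.45 and -0.49 with the other scalings. Complex V lay lowest relative to all genes in each of the 4, between -0.56 and -0.59. Complex III lay nearest to all genes, between -0.31 and -0.42. The members called higher in DPC were 8, 10 and 10 (36.5, 39.9 and 40.2% of all genes), and those called higher in HMC were 51, 50 and 50, or 67.1, 65.8 and 65.8% of tested members, beside 37.8, 34.3 and 34.4% of all genes.

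**Figure D5:**
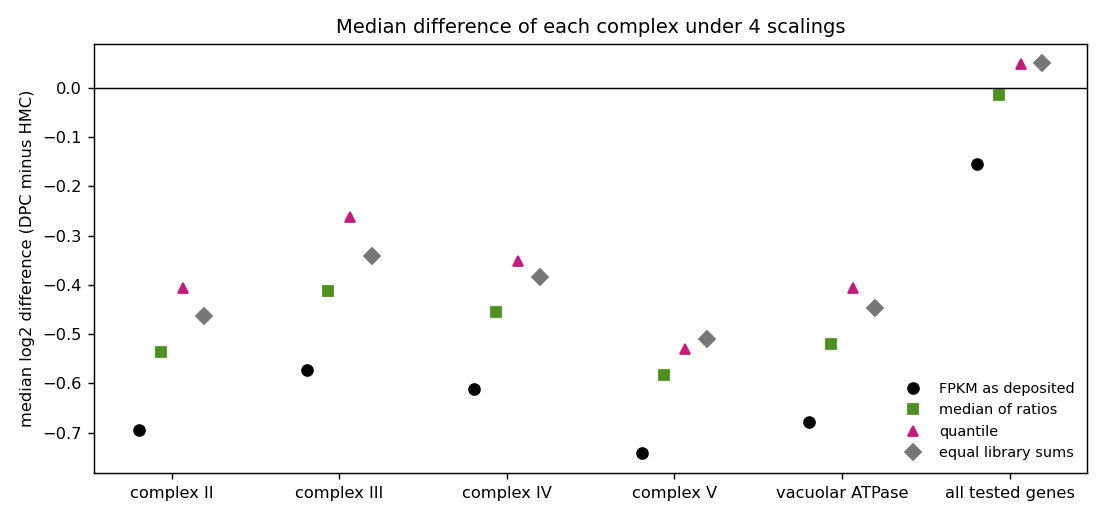
Median log2 difference, DPC minus HMC, of the tested members of each complex and of all tested genes, with FPKM as deposited and with 3 other scalings as separate symbols. Medians of the complexes stay below 0 with each scaling, between -0.74 and -0.26, while the median of all genes lies between -0.15 and 0.05.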

How the data were processed

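Messenger RNA of 6 cultured samples, 3 DPC and 3 HMC, was sequenced from stranded libraries. The authors deposited FPKM per gene, scaled by them to gene length and mapped fragments. Trimmomatic, HISAT2 2.2.1.0 and DESeq 1.20.0 are named in the submitters' processing notes without their roles. Counter, genome build and annotation are not stated, so coordinates and sequences are left out. FPKM values were whole multiples of a step per gene in 100% of genes (relative tolerance 1e-09), which gave the recovered reads, up to a common factor per gene.

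Genes averaging 0.5 FPKM or more were compared with limma 3.58.1 (R 4.3.3) on log2(FPKM + 1), trended prior variance, two-sided, Benjamini-Hochberg adjustment over 11883 genes, threshold 0.05, DPC minus HMC, after a check on simulated data. That check recovered 32% of 1.25-fold, 76% of 1.5-fold, 96% of 2-fold and 100% of 4-fold changes, with 9 false among 161 calls. Far fewer genes changed in it than in these data, so it does not cover the difference in RNA composition. On this scale the change of weakly expressed genes is understated. Exclusion by the complex I term was read on whole gene ontology terms. Read as a piece of text it would keep 68 genes. Named are, per complex, the 3 largest called differences, the most abundant member and listed isoforms, and per list the 2 largest called differences in each direction. One gene that this rule names is not reported here. Other genes named were chosen after their values were seen. Members and lists were chosen with earlier results of these data known. Older symbols were matched through the table's annotation and stand in parentheses. Deviations of same-numbered replicates had correlations of 0.023, 0.034 and 0.0064, and those of differently numbered ones -0.041 to 0.014. Such values cannot show whether same-numbered samples share an animal, which the labels do not state. The main fit used no pairing. Alternatives were another pseudocount, filters, scalings, no trend, a replicate block and leaving out each library.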

Additional observations from a re-analysis of the deposited data

How the results depend on the processing

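The count of members called higher in DPC became 10 with quantile normalization and 10 with the library sums equalized, an alternative chosen after seeing the data, and that of the V-ATPase became 5 with either. Complex IV had 1 member higher in DPC with the filter at 5 FPKM. Signs turned in small differences (DPC minus HMC, log2). With median-of-ratios rescaling these were the COB row at 0.014, a UQCRH row at 0.022, PPA2 at 0.012, ATP6V0B at 0.055 and ATP6V1G1 at 0.025. With quantile normalization they were the median of all genes at 0.048, SDHB at 0.062, COB at 0.097, UQCRH at 0.042, COX7B at 0.082, ATP6 at 0.045, PPA2 at 0.14, ATP6V0B at 0.16, ATP6V1G1 at 0.13 and ATP6V1H at 0.094. With equal library sums they were the median at 0.050, SDHB at 0.000635, COB at 0.047, UQCRH at 0.086, COX15 at 0.041, COX7B at 0.065, ATP6 at 0.013, PPA2 at 0.083, ATP6V0B at 0.13, ATP6V1G1 at 0.098 and ATP6V1H at 0.038. The cause was not tested. Leaving out 1 library, COB ranged from -0.17 to 0.033 and that UQCRH row from -0.43 to 0.053, above 0 without DPC replicate 3 for COB and without HMC replicate 2 or 3 (0.053 and 0.013) for UQCRH.

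Leaving out 1 library at a time gave 4 to 6 members higher in DPC and 54 to 58 higher in HMC. Per complex the counts higher in HMC were 3 to 4 for II, 6 for III, 14 to 16 for IV, 15 to 18 for V and 13 to 14 for the V-ATPase, and those higher in DPC were 1 to 2 for III, 1 to 2 for IV and 2 for the V-ATPase. Over all genes they were 3319 to 3442 higher in DPC and 5227 to 5346 higher in HMC. With a replicate block, 75 of 76 members kept their side of the threshold. The other, 1 UQCRH row, passed as lower in DPC (log2 difference -0.36, limma adjusted p = 0.033). The labels give same-numbered samples no link but the number. Depth limits the 14 tested members with fewer than 25 recovered reads in some library.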
